A study of Mus musculus with 6 samples.

Results

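Ly6a, Ly6c1, Ly6c2, Ly6e, Ccr2, Cx3cr1 and Plac8 are genes of the Ly6 family and markers that are used to tell monocyte subsets apart. These 7 genes, of 24394 gene symbols in the files, were chosen by name, with their FPKM in these libraries known. Their fold changes between the groups are therefore a description and carry no test. RNA-seq was performed on bone marrow-derived macrophages (BMMs) of C57BL/6 mice, aged 28 days after birth in the labels. Marrow cells passed a monocyte isolation kit and grew for 7 days in M-CSF (50 ng/ml), the growth factor that drives them to become macrophages. Crushed cartilage was added to 3 stimulated cultures for 24 h, at a ratio of 5 fragments to each macrophage, and was left out of 3 control cultures. The cartilage came from the femoral heads of the same mice that gave the marrow. No source used here says whether the 3 cultures of a group came from separate animals, so their spread may be technical.

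Ly6 proteins are small, cysteine-rich proteins that are held at the cell surface by a glycolipid (GPI) anchor. In the mouse, monocytes with much Ly6C and Ccr2 are called classical and are recruited to inflamed tissue, whereas monocytes with little Ly6C and much Cx3cr1 are called non-classical and patrol vessels. Monocytes that become macrophages usually lose Ly6C. Cx3cr1, by contrast, stays high in several macrophage populations of healthy tissue, including a lining layer of the joint.

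The deposited values are FPKM, the fragments of a transcript scaled to its length and to the depth of the library, so that levels can be compared between genes. The coverage listed beside them gave 699131 to 776270 fragments per library, and 1 fragment of Ly6c1 or Ly6c2 is worth about 2 to 3 FPKM. The Methods give far more reads per sample, a gap that the sources used here do not explain. All fragment counts below, and their intervals, rest on the depth taken from the coverage. Each library also lists transcripts that Cufflinks assembled in that library alone, which held 15.8% to 20.0% of its FPKM. These were added to the gene whose identifier they shared. The macrophage genes Cd68 (1160 FPKM in controls) and Csf1r (613 FPKM), the receptor for M-CSF, were abundant. Markers of T and NK cells were near 0, with 10 of 15 listed at 0 in all libraries, Cd3e among them, and sums of 0.875 to 2.05 FPKM in control and 1.31 to 3.59 FPKM in stimulated libraries. The Methods give male mice, but Xist stood at 19.8 to 23.6 FPKM in all 6 libraries while Uty, Kdm5d, Eif2s3y and Ddx3y, 4 genes of the Y chromosome, were listed at 0, so the sex of the cells goes against that statement in both groups alike.

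Of the Ly6 genes, Ly6e, Ly6a, Ly6c1 and Ly6c2 lie in a cluster on chromosome 15. In the files (mm10), Ly6e spans chr15:74955051-74959905 on the plus strand, and Ly6a spans chr15:74994877-74998031 on the minus strand. Ly6c1 follows at chr15:75044018-75048837 and Ly6c2 at chr15:75108161-75111949, both on the minus strand. In GENCODE M21 (GRCm38), the chosen transcript of each has 4 exons. The coding sequences of Ly6c1 and Ly6c2, both 396 bases long, differ at 9 positions, and 6 of these lie in the first 240 bases. They are shown because they determine how well reads of the genes can be told apart. Capitals mark the bases at which the pair differs.
Ly6c2: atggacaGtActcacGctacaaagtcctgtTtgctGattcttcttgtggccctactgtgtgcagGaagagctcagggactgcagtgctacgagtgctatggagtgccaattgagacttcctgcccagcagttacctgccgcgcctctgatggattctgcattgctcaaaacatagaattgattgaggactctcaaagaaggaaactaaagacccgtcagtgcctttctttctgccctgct
Ly6c1: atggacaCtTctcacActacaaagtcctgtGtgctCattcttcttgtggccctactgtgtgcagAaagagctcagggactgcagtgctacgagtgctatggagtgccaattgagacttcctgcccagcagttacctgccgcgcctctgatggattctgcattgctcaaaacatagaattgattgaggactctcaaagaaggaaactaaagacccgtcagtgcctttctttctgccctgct

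The differences gather near the start of the coding sequence, and long stretches after it are shared. The identity of the coding sequences was 97.7% for Ly6c1 and Ly6c2, but 81.7% for Ly6c2 and Ly6a and 50.2% for Ly6c2 and Ly6e. Of 723 windows of 100 bases, the read length, in the Ly6c2 transcript, 114 occurred unchanged in that of Ly6c1, and the longest shared run was 188 bases. No such window of Ly6c2 was shared with Ly6a, Ly6e or Ly6i, another gene of the cluster. A read from a shared window cannot be assigned to Ly6c1 or Ly6c2 by itself, so the split of fragments between them is uncertain.

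**Figure D1:**
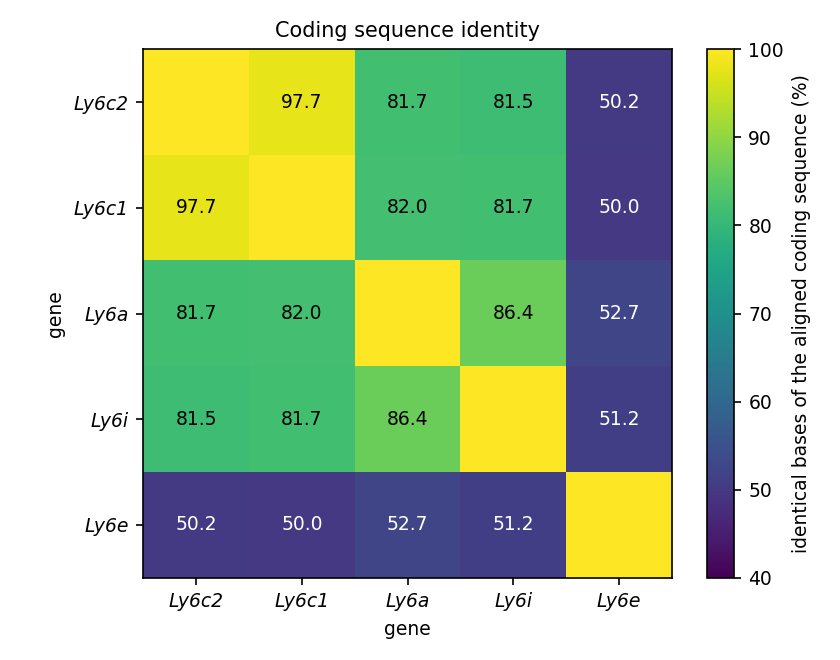
Identity of the coding sequences (percent of aligned bases) between Ly6c2, Ly6c1, Ly6a, Ly6i and Ly6e, one gene per row and column. Ly6c2 and Ly6c1 are 97.7% identical, Ly6a and Ly6i 86.4%, and Ly6e is at most 52.7% identical to any of the others.

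The windows upstream of Ly6c1 and Ly6c2 are shown because both genes stood higher in stimulated libraries. Each is the 250 bases before the most upstream start that RefSeq (GRCm38.p6) lists, at chr15:75048838-75049087 for Ly6c1 and chr15:75111972-75112221 for Ly6c2, both on the minus strand. Capitals mark runs of at least 15 bases that occur in both windows.
Ly6c2: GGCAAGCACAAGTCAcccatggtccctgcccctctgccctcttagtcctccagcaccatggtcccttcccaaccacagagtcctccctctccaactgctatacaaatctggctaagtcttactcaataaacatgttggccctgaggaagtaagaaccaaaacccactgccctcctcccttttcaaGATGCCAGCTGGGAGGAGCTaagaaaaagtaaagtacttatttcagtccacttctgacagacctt
Ly6c1: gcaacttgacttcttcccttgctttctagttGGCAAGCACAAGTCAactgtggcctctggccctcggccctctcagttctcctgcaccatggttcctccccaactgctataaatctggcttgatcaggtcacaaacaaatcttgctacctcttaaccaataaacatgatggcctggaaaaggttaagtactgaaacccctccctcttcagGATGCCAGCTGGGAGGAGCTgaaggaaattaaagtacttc

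The windows share 2 such runs, of which the longer has 20 bases. Over the alignment of 284 columns, gaps included, 164 bases (57.7%) were identical. The windows are offset, since the first shared run opens the Ly6c2 window but lies farther into that of Ly6c1. The coding alignment (97.7%) held no gaps, so the 2 percentages cannot be set against each other. Of 5 motifs searched on both strands, GGAAGT, the core letters bound by the myeloid factor PU.1, occurred in the Ly6c2 window, 106 to 101 bases before the start, and not in that of Ly6c1. These letters occur in 19.7% of the 32851 promoter windows of this length. The core letters of the interferon response element (GAAANNGAA, 7.13% of windows), of the STAT site (TTCNNNGAA, 7.02%), of AP-1 (TGANTCA, 6.75%) and of C/EBP (TTGCNNAA, 9.56%) occurred in neither window. The windows of Ccr2, Cx3cr1 and Plac8 were searched in the same way. Their only match was GAAANNGAA in the Ccr2 window, 86 to 78 bases before the start. Promoters of Ly6a, Ly6e and Ly6i were not analysed here.

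Ly6c2, which encodes the main Ly6C antigen of classical monocytes, stood about 4 times higher in stimulated than in control BMMs, and Ly6c1 and Cx3cr1 were also higher, whereas Ccr2 was lower. Ly6a and Ly6e, the most abundant members, were slightly higher. The groups did not overlap for 6 of 7 members, 5 of them higher and Ccr2 lower. Of all 10393 genes tested, whose mean reached 1 FPKM or more, 15.9% had groups that did not overlap, and 9.04% did so with the stimulated libraries higher. One member, Ly6c2, passed the threshold of the limma fit across all genes (adjusted p under 0.05 after Benjamini-Hochberg adjustment), which 0.366% of all genes passed. As the members were chosen from this contrast, nothing is read from these counts.

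**Figure D2:**
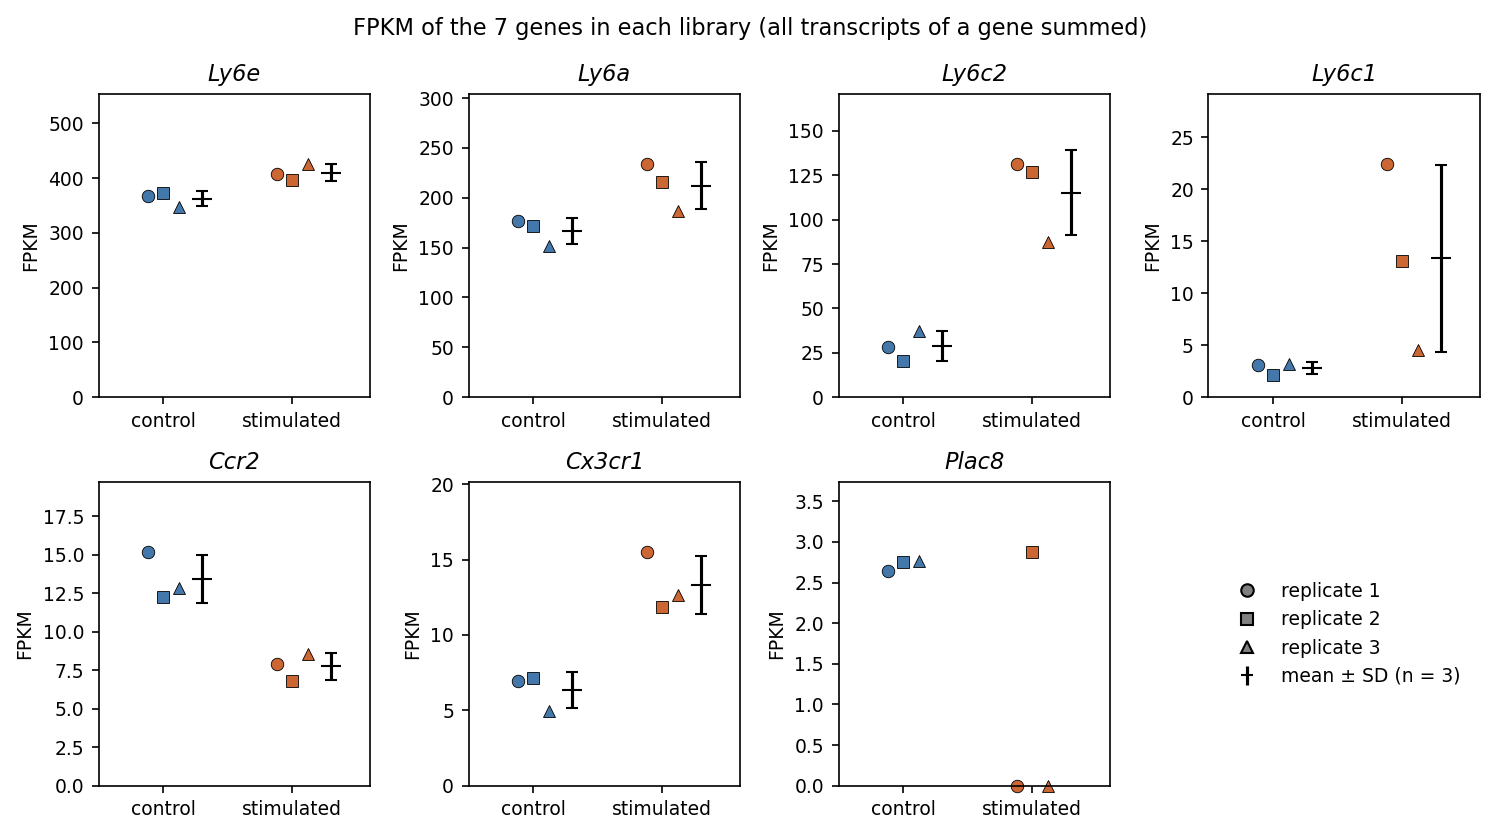
FPKM (vertical axis, linear from 0, a scale for each gene) of the 7 genes in the 3 control (blue) and 3 stimulated (orange) libraries, one symbol per replicate number, with the mean ± SD except for Plac8. Ly6c2 ranges from 20.3 to 37.6 in control and from 87.6 to 132 in stimulated libraries, Ccr2 is lower in every stimulated library, and Plac8 is at 0 in 2 stimulated libraries.

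Ly6c2 had 28.3, 20.3 and 37.6 FPKM in control replicates 1 to 3 and 132, 127 and 87.6 FPKM in stimulated replicates 1 to 3. Every stimulated library thus lay above the highest control, with stimulated replicate 3 the lowest of its group. The means were 28.7 ± 8.61 and 115 ± 24.1 FPKM (SD, n = 3 each), a log2 fold change of 2.02 (SE 0.25) on the scale of FPKM plus 0.1. These values rest on 12.8, 8.9 and 16.2 estimated fragments in control and 57.3, 55.1 and 35.4 fragments in stimulated libraries. The ratio of the summed fragments at equal depth was 4.07, with an exact 95% interval of 2.84 to 5.98 that covers counting error only. The call depended on single libraries: if the first control, the first stimulated or the second stimulated replicate was left out, Ly6c2 no longer passed, and its log2 fold change lay between 1.80 and 2.24 over all 6 leave-outs. It passed in 13 of 19 alternatives in all.

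The value of Ly6c2 in stimulated replicate 2 depended on the assembled transcripts. There the reference transcript was listed at 0, and 2 assembled transcripts with the identifier of its gene had 63.3 FPKM each, at chr15:75108161-75111961 and chr15:75108161-75111717. They end where the reference transcript ends, and on the side of the gene's start the first reaches slightly farther out and the other less far. Counting rows that carry the symbol alone gave 132, 0 and 87.6 FPKM in the stimulated libraries and left the controls as they were. On that count the groups overlapped, and the log2 fold change was -1.41 with an SE of 2.86. Both counts are given because the files hold both, but the symbol count leaves out all 55.1 estimated fragments of Ly6c2 in stimulated replicate 2. The paper lists Ly6c2 among its upregulated genes, the direction of the summed count. With symbol rows alone, 0.184% of 10352 genes passed the threshold, none of them a member.

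Ly6c1, the close relative of Ly6c2 that is also known from endothelial cells, was much less abundant. It had 3.12, 2.09 and 3.16 FPKM in the controls, on about 1, 1 and 1.5 fragments. In stimulated replicates 1 to 3 it had 22.5, 13.1 and 4.50 FPKM, on 9.9, 5.9 and 2 fragments. The groups did not overlap, but stimulated replicate 3 exceeded the highest control by less than the worth of 1 fragment. The sums were rounded to whole fragments, 18 in stimulated and 3 in control libraries. Their ratio was 6.28 at equal depth, with an exact 95% interval of 1.83 to 33.3 that is wide because the controls held so few. Rounding lowered the control sum and raised the stimulated one, and so raised this ratio. The ratio of the mean FPKM, a different measure, was 4.79. Ly6c2 had 9.08 to 11.9 times the FPKM of Ly6c1 in control and 5.85 to 19.5 times in stimulated libraries, ranges that overlap. Endothelial markers summed to 7.68 to 11.6 FPKM in control and 8.05 to 9.25 FPKM in stimulated libraries, with Tek, Emcn, Sox17 and Tie1 of 10 listed at 0.

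Ly6a encodes Sca-1, a surface antigen of blood stem cells that interferons raise in many cell types. Its levels were 176, 171 and 152 FPKM in control and 234, 215 and 187 FPKM in stimulated libraries. The lowest stimulated library lay just above the highest control. The mean was 167 ± 12.9 FPKM in control and 212 ± 23.7 FPKM in stimulated libraries (SD, n = 3 each), a log2 fold change of 0.35 (SE 0.11). In control replicate 3, an assembled transcript held 122 of the 152 FPKM, and with symbol rows alone that library stood at 30.0 FPKM. The transcripts that led Ly6a varied within each group, with NM_001271419 the leading one in control replicates 1 and 2 and stimulated replicate 2, and NM_010738 in stimulated replicates 1 and 3. The stem and progenitor markers Kit, Flt3 and Gata2 were listed at 0 in all libraries, and the 9 genes of that list summed to 63.3 to 71.7 FPKM in control and 63.5 to 77.7 FPKM in stimulated libraries, almost all of it Procr.

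Ly6e, a widely expressed member that interferons induce and that restricts the entry of some viruses, was the most abundant. It had 366, 373 and 347 FPKM in control and 408, 396 and 426 FPKM in stimulated libraries. The groups did not overlap, with means of 362 ± 13.8 and 410.0 ± 15.4 FPKM (SD, n = 3 each) and a log2 fold change of 0.18 (SE 0.06). The ratio of fragments was 1.10, with an exact 95% interval of 1.02 to 1.19. The transcript NM_001164040 held 73.7% to 87.6% of Ly6e in the other 5 libraries, whereas in stimulated replicate 3 a single assembled transcript at chr15:74956622-74959905 held all 426 FPKM and the reference transcripts were listed at 0. With symbol rows alone the log2 fold change was therefore -3.84, with an SE of 3.38.

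Ly6i, a gene between Ly6e and Ly6a that is no member, was named by the rule for genes of the cluster and shows the same dependence in all stimulated libraries. Its reference transcript had 21.2, 10.00 and 10.1 FPKM in the controls and 0 in each stimulated library. Assembled transcripts of its gene, which reach beyond the end of the reference, gave 49.0, 41.6 and 43.2 FPKM there. With both kinds summed, the log2 fold change was 1.78 (SE 0.29, adjusted p = 0.07 by limma with Benjamini-Hochberg adjustment), and it was -7.02 (adjusted p = 0.046) with symbol rows alone. The sign of the difference thus turned with the count used.

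**Figure D3:**
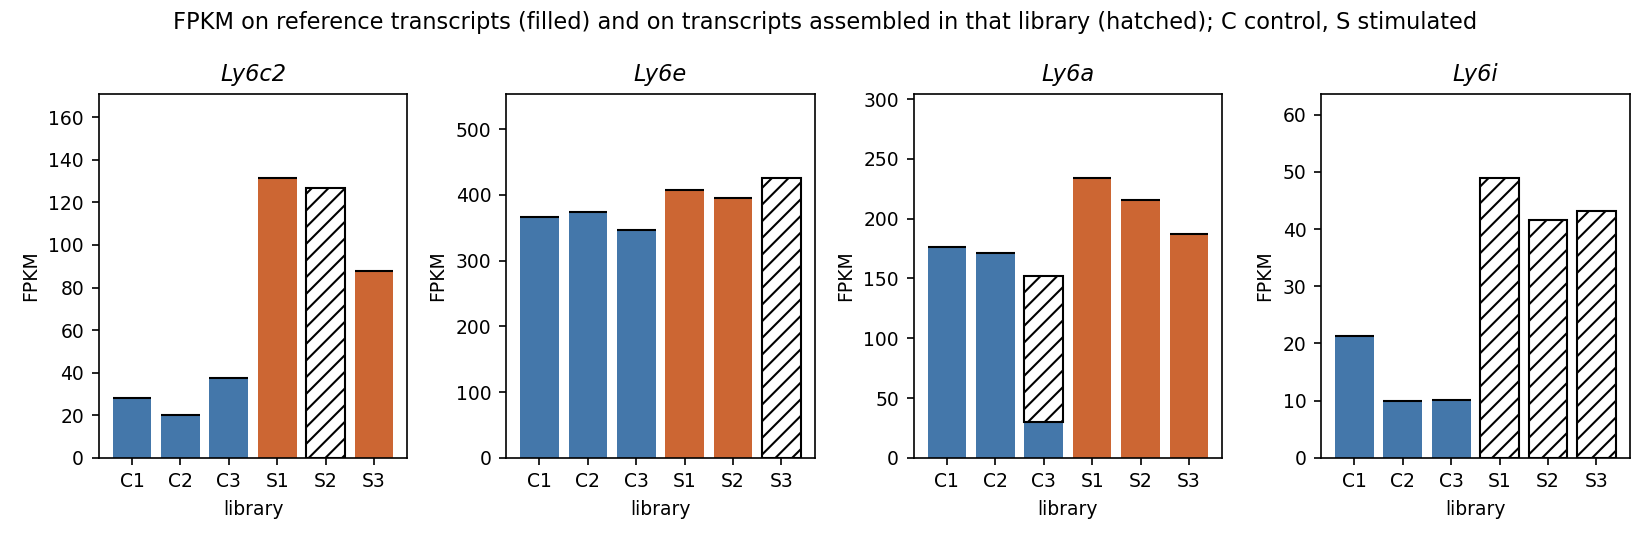
FPKM of Ly6c2, Ly6e, Ly6a and Ly6i in control libraries C1 to C3 (blue) and stimulated libraries S1 to S3 (orange), stacked by reference transcripts (filled) and transcripts assembled in that library (hatched), on linear axes from 0. The assembled part is the whole value in S2 for Ly6c2, in S3 for Ly6e and in S1 to S3 for Ly6i, and it is 122 of 152 FPKM in C3 for Ly6a.

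The chemokine receptors differed in opposite directions between the groups. Ccr2, the receptor for Ccl2 that takes classical monocytes out of the marrow, lies at chr9:124102183-124109140 on the plus strand. It had 15.2, 12.2 and 12.8 FPKM in control and 7.93, 6.82 and 8.54 FPKM in stimulated libraries. Every stimulated library lay below the lowest control, with means of 13.4 ± 1.55 and 7.76 ± 0.872 FPKM (SD, n = 3 each). The log2 fold change was -0.78 (SE 0.20), on 103 fragments in control and 57 in stimulated libraries, with a ratio of 0.579 (exact 95% interval 0.411 to 0.808). In such bulk samples, fewer cells of a type and less RNA per cell cannot be told apart.

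Cx3cr1, the receptor for the membrane-bound chemokine fractalkine, lies at chr9:120048683-120068296 on the minus strand. It had 6.96, 7.15 and 4.98 FPKM in control and 15.5, 11.8 and 12.6 FPKM in stimulated libraries. The lowest stimulated library exceeded the highest control by more than the range within the controls. The means were 6.37 ± 1.20 and 13.3 ± 1.93 FPKM (SD, n = 3 each), a log2 fold change of 1.06 (SE 0.23), and the ratio of fragments was 2.11 (exact 95% interval 1.50 to 3.02). Within each library, the FPKM of Cx3cr1 over that of Ccr2 was 0.459, 0.585 and 0.387 in control and 1.96, 1.73 and 1.48 in stimulated libraries, so that the more abundant of the receptors differed between the groups.

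**Figure D4:**
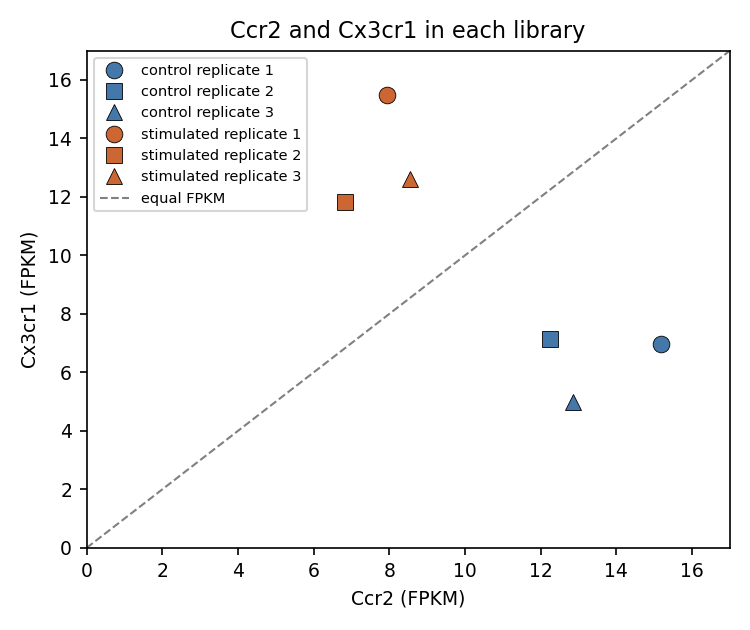
FPKM of Ccr2 (horizontal axis) and of Cx3cr1 (vertical axis) in each of the 6 libraries, with a dashed line at equal FPKM. The 3 control libraries (blue) lie below the line, with ratios of 0.387 to 0.585, and the 3 stimulated libraries (orange) lie above it, with ratios of 1.48 to 1.96.

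Plac8, which encodes a small cysteine-rich protein of classical monocytes and other blood cells, lies at chr5:100553733-100572205 on the minus strand. It had 2.65, 2.75 and 2.76 FPKM in the controls and 0, 2.88 and 0 FPKM in stimulated replicates 1 to 3. Each value above 0 rests on 1 fragment. With 3 fragments in control and 1 in stimulated libraries, no difference was detectable at this depth, and no fold change is given.

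In order of mean FPKM, the controls held Ly6e, Ly6a, Ly6c2, Ccr2, Cx3cr1, Ly6c1 and Plac8. Only Ly6c1 and Plac8, the last of this order, overlapped as neighbours. In stimulated libraries the first 3 places were the same, and Ly6c1 (13.4 ± 8.99 FPKM) and Cx3cr1 (13.3 ± 1.93 FPKM) followed, ahead of Ccr2 and Plac8. Ly6c1 and Cx3cr1 overlapped there, and the other neighbours did not. Ly6c2 amounted to 5.45% to 10.8% of the FPKM of Ly6e in control and to 20.5% to 32.3% in stimulated libraries.

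With estimated fragments scaled to the library in place of FPKM, 2 members passed the threshold, Ly6c2 and Cx3cr1, against 2.52% of all genes. The sign of the log2 fold change of Ccr2, Cx3cr1, Ly6a and Ly6c1 was the same in all 19 alternatives. That of Ly6c2 and Ly6e was the same in 18 of 19 and turned with symbol rows alone. As the groups of these genes did not overlap, leaving out a library could not turn a sign. A change of the filter, of the moderation or to a replicate block leaves the fold change as it is. The counts of equal signs are therefore no measure of support.

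Genes around the members were followed in lists that were drawn up with earlier results of these data known. The median log2 fold change of all genes tested was 0.004, and each list's median stands beside it as a description. Of all genes tested, 9.19% had an unadjusted p under 0.05 by limma, the share beside which the counts of the lists at that level stand. Other genes of the Ly6 and urokinase receptor family were mostly silent, with 23 of 32 listed at 0 in all libraries. Of the 5 tested, none passed in limma (1 at an unadjusted p under 0.05), and 1, Ly6i, passed with scaled fragments. Their median was 0.11. After Ly6i, the largest differences were 0.32 for Cd59a, which shields cells from complement, 0.11 for Lynx1 and 0.05 for Bambi. Plaur, the urokinase receptor and the most abundant of them, had 93.3 ± 1.71 FPKM in control and 94.3 ± 25.4 FPKM in stimulated libraries.

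Among 20 genes of classical monocytes, 1 rose and none fell by limma (3 at an unadjusted p under 0.05, and 1 higher with scaled fragments), with a median of -0.04. The one that rose was Hp, haptoglobin, from 23.7 ± 7.12 to 152 ± 26.6 FPKM (log2 fold change 2.71, SE 0.25, adjusted p = 0.00411), a call that was lost when stimulated replicate 1 was left out. Of 17 genes of non-classical monocytes none passed (5 at an unadjusted p under 0.05, and 2 higher with scaled fragments), with a median of 0.18. The log2 fold change was positive for 10 of them and negative for 7. Adgre4, an adhesion receptor of this subset, had 3.09 ± 1.16 FPKM in control and 14.2 ± 3.88 FPKM in stimulated libraries (log2 fold change 2.19, SE 0.34, adjusted p = 0.0532 by limma). Treml4 had 4.09 ± 1.02 and 11.4 ± 5.30 FPKM (log2 fold change 1.38, adjusted p = 0.219 by limma). Among the negative ones, Cd36, the most abundant of the list, had 577 ± 60.7 and 527 ± 11.9 FPKM (log2 fold change -0.13). Fcgr4 had 51.0 ± 5.50 and 40.2 ± 4.75 FPKM (log2 fold change -0.34). The groups overlapped for both. Cd300e and Ear2 had few fragments, with 3.00 in control and 12.0 in stimulated libraries for Cd300e and 4.41 and 0.984 for Ear2.

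Among 20 genes of tissue macrophages, 2 rose and none fell by limma (6 at an unadjusted p under 0.05, and 4 higher and 1 lower with scaled fragments), with a median of 0.11. Adgre1, which encodes the macrophage antigen F4/80, rose from 365 ± 13.4 to 549 ± 22.0 FPKM (log2 fold change 0.59, SE 0.06, adjusted p = 0.00965). Cd14, the co-receptor for bacterial lipopolysaccharide, rose from 118 ± 5.28 to 183 ± 14.8 FPKM (log2 fold change 0.63, SE 0.09, adjusted p = 0.0388). Neither passed when stimulated replicate 1 or 2 was left out, and 1 of them did when any control was. The gene called lower with scaled fragments was Gpnmb, a glycoprotein of lysosome-rich macrophages, whose FPKM of 5553 ± 1467 in control and 3518 ± 570.4 in stimulated libraries overlapped between the groups (adjusted p = 0.55 with FPKM and 1.03e-12 with scaled fragments, both by limma). Without overlap of the groups, 5 genes of the list were higher and 2 lower, beside 15.9% of all genes in either direction. The lower ones were Apoe, with 20591 ± 380 and 16776 ± 1456 FPKM (log2 fold change -0.30, adjusted p = 0.104 by limma), and Trem2. Trem2 had 595 ± 35.8 and 524 ± 16.8 FPKM (log2 fold change -0.18, adjusted p = 0.419 by limma).

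Ligands of Ccr2 and Cx3cr1 and the proteases that shed or cut fractalkine gave 6 tested genes, of which none passed (2 at an unadjusted p under 0.05, and 1 higher and 1 lower with scaled fragments), with a median of -0.04. Adam17, which sheds fractalkine from the cell surface, had 60.9 ± 1.64 FPKM in control and 81.9 ± 7.46 FPKM in stimulated libraries (log2 fold change 0.42, SE 0.11, adjusted p = 0.242 by limma). It was the gene called higher with scaled fragments. Ctss, another protease of the list, was the gene called lower. Its FPKM of 4090 ± 64.0 and 3682 ± 90.6 did not overlap between the groups (log2 fold change -0.15, SE 0.03, adjusted p = 0.131 by limma). Ccl8 had 80.5 ± 30.1 and 64.9 ± 9.84 FPKM (log2 fold change -0.25). Ccl2 and Ccl7, further ligands of Ccr2, had at most 9.84 fragments in either group. Cx3cl1, fractalkine itself, was below the filter at 1.06 ± 0.539 and 0.639 ± 0.299 FPKM.

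Of 7 other chemokine receptors none passed (3 at an unadjusted p under 0.05, and 1, Cmklr1, with scaled fragments), with a median of -0.16. Ccrl2 had a log2 fold change of 0.65, Cmklr1 0.40, Cxcr4 -0.28 and Cxcr3 -0.85. With FPKM none of these differences was called, and the difference between Ccr2 and the other receptors was not tested.

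As Ly6a and Ly6e are known interferon targets, 39 interferon-induced genes were followed. None passed by limma (5 at an unadjusted p under 0.05) and none with scaled fragments, with a median of 0.32 and 31 of 39 positive. The largest fitted differences, of Ifi35, Isg15, Oasl1 and Eif2ak2, belong to genes listed at 0 in 1 library each. Bst2 had 85.6 ± 3.88 FPKM in control and 129 ± 17.7 FPKM in stimulated libraries (log2 fold change 0.58, adjusted p = 0.123 by limma). The paper, by its own test, lists Bst2 as upregulated. Among the other named list genes that did not pass by limma with FPKM, it lists Adam17 and Cmklr1 as upregulated. It lists Apoe, Gpnmb, Col1a1 and Col1a2 as downregulated.

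**Figure D5:**
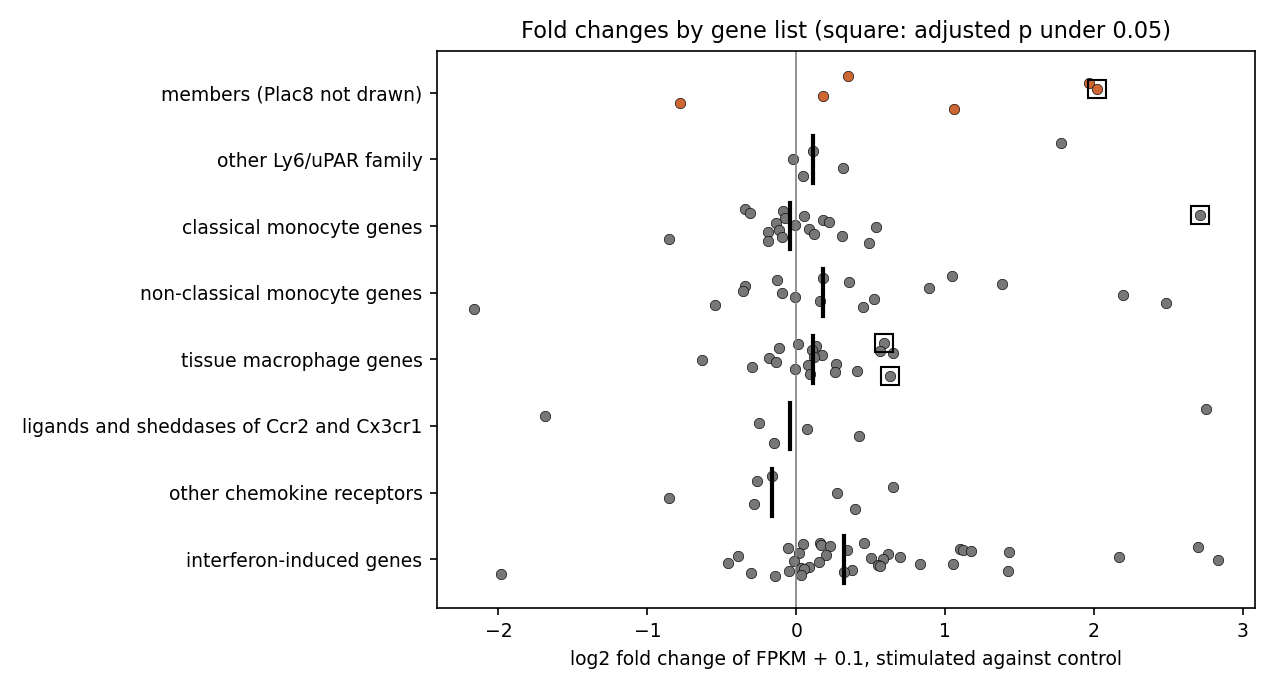
Log2 fold changes of FPKM plus 0.1 (horizontal axis, stimulated against control) of 6 members and of the tested genes of 7 lists (rows), 1 point per gene, with a black line at the median of each list and a square around genes with an adjusted p under 0.05. Squares surround Ly6c2, Hp, Adgre1 and Cd14, and the medians of the lists lie between -0.16 and 0.32.

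Cells other than macrophages could hold transcripts of the members, and their markers were read in each library. Neutrophil and myeloid progenitor markers summed to 866 to 1001 FPKM in control and 812 to 1193 FPKM in stimulated libraries, with Ctsg, Stfa2 and Ms4a3 of 15 listed at 0, and none of 8 tested passed by limma (1 at an unadjusted p under 0.05, none with scaled fragments). S100a8 and S100a9 led that sum with 318 ± 66.2 and 443 ± 22.4 FPKM in control and 377 ± 66.8 and 391 ± 96.5 FPKM in stimulated libraries. B cell markers summed to 1.91 to 6.54 FPKM in control and 1.36 to 8.34 FPKM in stimulated libraries, with 7 of 10 at 0. Dendritic cell markers summed to 78.0 to 93.5 and 70.7 to 80.4 FPKM, mostly Itgax, which macrophages also express. Chondrocyte and fibroblast markers summed to 159 to 171 FPKM in control and 105 to 122 FPKM in stimulated libraries, nearly all of it Col1a1 (79.0 ± 7.28 and 47.8 ± 3.77 FPKM) and Col1a2 (78.1 ± 7.53 and 58.6 ± 3.51 FPKM), with Matn1, Matn3, Col9a1, Hapln1, Lect1 and Col10a1 of 17 at 0. None of the 4 tested passed by limma (2 at an unadjusted p under 0.05), and 2, Col1a1 and Col1a2, were lower with scaled fragments. The part of these cells in the values of the members was not tested.

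The genes most like Ly6c2 were taken by Pearson's r of log2 values over the 6 libraries among 5523 genes that reached 10 FPKM on average. They were Lactb2 (r = 0.993), Socs3 (0.992), Itgb2 (0.992), Pid1 (0.988) and Ccl5 (0.986). Socs3, a brake on cytokine signalling, had 3.61, 3.18 and 5.93 FPKM in control and 18.1, 17.2 and 14.3 FPKM in stimulated libraries. The chemokine Ccl5 had 7.96, 8.33 and 12.5 FPKM in control and 46.0, 47.9 and 26.8 FPKM in stimulated libraries. In both, as in Ly6c2, control replicate 3 was the highest control and stimulated replicate 3 the lowest stimulated library. The libraries form the same separate groups for each of these genes, so r describes these 6 points and carries no test. With symbol rows alone another 5 genes led, of which Cpsf1 and Hnrnpul2 were also listed at 0 in stimulated replicate 2.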

How the data were processed

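RNA-seq of 3 control and 3 stimulated BMM cultures was analysed. The authors used TopHat and Bowtie to place read pairs (100 bp per read) on mm10, then Cufflinks for each library separately. Versions are not given in the sources used here. The deposited FPKM are per transcript, and the deposited coverage signal is the read depth listed beside them. The files hold no read counts. Whether TMM, which the Methods name, was applied could not be told.

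For each gene symbol, the FPKM of its transcripts were added up, together with those of assembled transcripts whose gene identifier holds that symbol alone. Symbol rows alone were the alternative. Genes that averaged 1 FPKM or more were tested on log2(FPKM + 0.1) with limma 3.58.1 in R 4.3.3 (moderated by eBayes, trend and robust set), as a two-sided test, and p-values were adjusted by Benjamini-Hochberg over 10393 genes. The limma fit was also run on simulated fragments. These did not mimic genes listed at 0 on the reference transcript beside an assembled one, so that step was not checked. Fragments were estimated from coverage and transcript length. The mean fragment length of each library was the value that put low estimates nearest to whole numbers. With it, 95.1% to 95.5% of low values lay within 0.1 of a whole number, a share that is therefore no separate check. Intervals on fragments are exact (Clopper-Pearson), use sums rounded to whole fragments and cover counting error only. Sequences came from GENCODE M21 and RefSeq tables and were aligned with Biopython 1.88.

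The members and lists were chosen with earlier results of these data known. Genes of the lists are named where they passed the threshold, or else as up to 4 with the largest log2 fold change. The most abundant genes and those at 0 are named for lists of other cell types, the 5 nearest for likeness to Ly6c2. Bst2, Plaur, Gpnmb, Ctss, Cx3cl1, Cd36, Fcgr4, Apoe and Trem2 were named after their values were seen.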

Additional observations from a re-analysis of the deposited data

How the results depend on the processing

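The number of genes past the threshold was 38 (32 higher, 6 lower) and the number of members 1. Same-numbered libraries had correlations of deviations from the group means of -0.02, -0.0024 and 0.0099. These run over all tested genes, many of them on few fragments, so they cannot tell whether the replicate numbers pair the cultures. With a replicate block, 18 genes, 0 members and 0 tissue macrophage genes passed. Without trend and robust moderation, 18 genes, 0 members, 0 classical monocyte genes and 0 tissue macrophage genes passed.

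With symbol rows alone, 19 genes, 0 members, 1 other family gene (Ly6i) and 0 tissue macrophage genes passed. The log2 fold change was then 1.12 for Ly6a and -3.84 for Ly6e, and that of Ly6c2 reversed to -1.41, since a library listed at 0 on the reference transcript stayed at 0. With scaled fragments, 262 genes (169 higher, 93 lower), 2 members, 1 other family gene, 2 non-classical monocyte genes, 5 tissue macrophage genes (4 higher, 1 lower), 2 ligands and sheddases, 1 other chemokine receptor and 2 chondrocyte and fibroblast markers passed. The cause of these gains, and of the losses under the other fits, was not tested. At a pseudocount of 1, 1 non-classical gene passed, and at a filter of 5 FPKM 1 non-classical and 1 other family gene. Quantile normalization left 1 tissue macrophage gene and a log2 fold change of 0.10 for Ly6e. With transcripts of status OK only, Ly6c1 came to 3.54.

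Leaving out 1 library at a time gave 8 to 30 genes (8 without stimulated replicate 1, 17 without stimulated replicate 2 and 22 without control replicate 1), 0 to 1 members, 0 to 1 other family genes, 0 to 1 classical monocyte genes and 0 to 2 tissue macrophage genes. Log2 fold changes of the members over these leave-outs ran from -0.85 to -0.69 for Ccr2, 0.90 to 1.15 for Cx3cr1, 0.27 to 0.43 for Ly6a, 1.46 to 2.60 for Ly6c1 and 0.15 to 0.20 for Ly6e. About 1 fragment in each library that detects Plac8, and about 3 fragments of Ly6c1 over the controls, limit what these genes can show.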

Other observations

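The listing of a gene at 0 on its reference transcript while an assembled transcript of the same gene held a value was not particular to the Ly6 genes. Over all 6 libraries and 24394 gene symbols it occurred in 2087 pairs of a gene and a library. Of the 10352 genes tested with symbol rows alone, 1212 had such a pair. An assembled transcript was joined to 3158 of those 10352 genes in at least 1 library. Among the 7 members, the pairs were Ly6c2 in stimulated replicate 2 and Ly6e in stimulated replicate 3, and among their neighbours Ly6i in all 3 stimulated libraries.

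Of the first 5 genes most like Ly6c2, 4 were again among the first 5 when the comparison took in every gene that averaged 1 FPKM or more, with Agrn (r = 0.994) ahead of them. Agrn, which encodes the matrix protein agrin, had 3.99, 3.54 and 4.74 FPKM in control and 7.10, 7.60 and 6.44 FPKM in stimulated libraries.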
